A study of Homo sapiens with 8 samples.

Results

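Treatment with OTX015 alone was compared with vehicle across all 22458 genes that a single named probe set measured, in 4 of the 8 arrays of the series. The arrays were those titled OTX015 1 and 2 (5 µM OTX015 for 24 h) and DMSO 1 and 2 (vehicle for 24 h). The cells were NCH644, an established glioblastoma line with stem-like properties that grows as floating neurospheres. The remaining 4 arrays held 5 µM panobinostat, an inhibitor of histone deacetylases, with 5 µM OTX015 and without it. They share in the estimate of the spread behind every standard error and p-value. They also enter the background level and the bins of brightness. Their values are otherwise given only where OTX015 was added to panobinostat or set beside it. RNA of all groups was extracted at one time with a column kit. The arrays are called biological duplicates, but nothing states how the duplicates were separated, so the p-values measure the spread between these samples only. All values describe 1 line at 1 dose and 1 time.

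OTX015, also known as birabresib, occupies the acetyl-lysine pockets of the BET proteins, BRD2 and BRD3 among them. BET proteins sit on acetylated histones at promoters and enhancers and help release paused RNA polymerase II, in part through the kinase complex P-TEFb, so that genes fed by large enhancers, among them lineage genes and MYC, are often sensitive to their loss. A known counter-response is a rise of HEXIM1, an inhibitor of P-TEFb, and of histone genes.

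Levels below are log2 RMA values per array, and differences are log2 OTX015 minus DMSO ± standard error from the limma fit, with 2 arrays in each group. A gene was called when its Benjamini-Hochberg adjusted p was under 0.05 over all genes. With 2 arrays a group, the number of arrays limits the precision, and the median standard error was 0.160. Array medians lay between 3.869 and 4.004 over the 8 arrays, and duplicates correlated across genes at 0.993 for OTX015 and 0.990 for DMSO. Probe sets were taken as above background at group means over 3.07, the 95th percentile of 372 olfactory receptor genes. Where the dimmer group lay under that level, the fold is given as a lower bound ("at least") against it. In bulk RNA, fewer cells of a type and less RNA per cell cannot be told apart, and RMA sets all arrays to a common distribution, so a change in total RNA would not be seen.

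Markers of the labelled cell type were present. All 12 measured glioma stem and neural marker genes lay above background, and markers of other cell types were mostly at background: 3 of 15 for microglia and macrophages, 5 of 12 for endothelium, 6 of 12 for pericytes and fibroblasts and 4 of 11 for lymphocytes lay above it. Of these 50 other markers, CD68 of macrophages (0.82 ± 0.17) and ESAM of endothelium (0.62 ± 0.16) were called, both higher with OTX015. CD68 lost its call without DMSO 1 (limma adjusted p = 0.0743), OTX015 1 (0.0686) or OTX015 2 (0.078), and ESAM without DMSO 1 (0.162), OTX015 1 (0.0687) or OTX015 2 (0.19). Their part in other results was not tested.

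OTX015 changed many genes by a modest amount and a small set by a large one, and the large changes were mostly falls. Of all genes, 3697 (16.5%) were called, 1791 (7.97%) higher and 1906 (8.49%) lower. The median change of the called genes was 0.749 for those higher (1.68-fold) and -0.815 for those lower (1.76-fold), beside a median of -0.02 over all genes. At least 2-fold changes were called for 394 genes higher (1.75%) and 617 lower (2.75%). At 4-fold the split widened to 19 higher and 83 lower, and at 8-fold there were 0 higher and 14 lower. For every called gene both OTX015 arrays lay beyond both DMSO arrays, an arrangement also seen for 12068 of all 22458 genes. Where groups of a called gene are said below not to overlap, this describes the values and adds no support to the call. The calls near the threshold were fragile. Leaving out one array gave 1963 calls without OTX015 1, 1885 without OTX015 2, 2567 without DMSO 1 and 2391 without DMSO 2, and 1419 genes (38.4%) stayed called in each of these 4 fits, against 873 (86.4%) of the 1011 genes changed at least 2-fold. No called gene changed sign in them. Counts of list and family members below are followed, in brackets, by their range over these 4 fits where it departs from the count by more than 1.5 times.

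**Figure D1:**
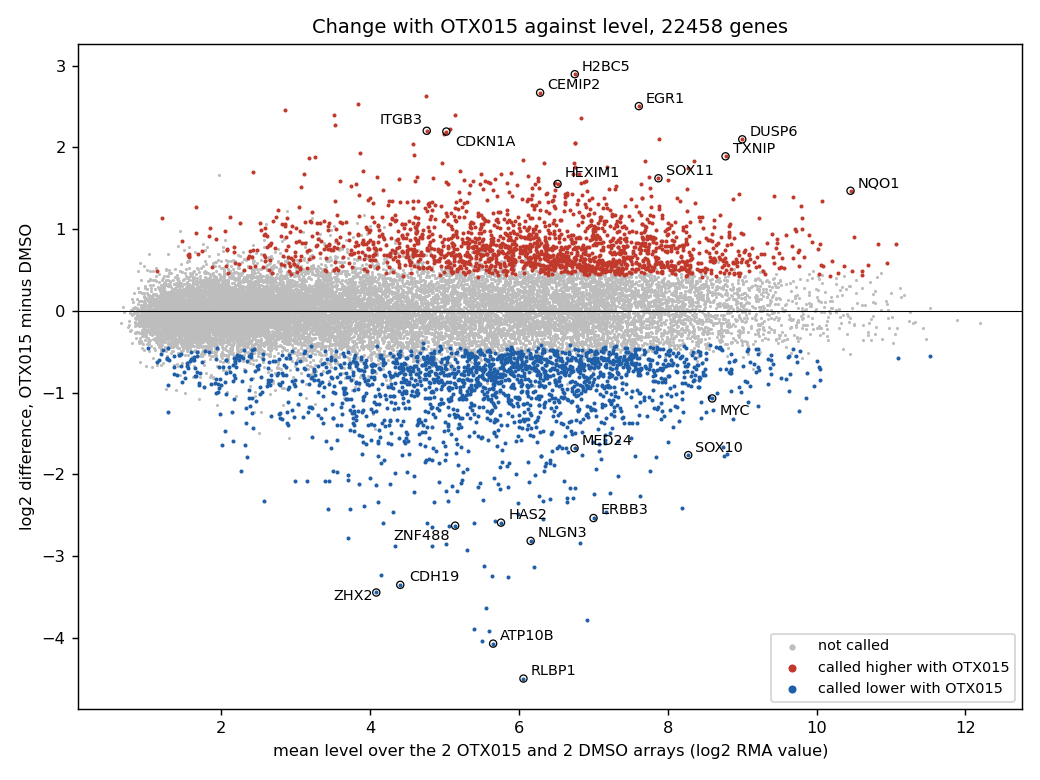
Log2 difference between OTX015 and DMSO (vertical axis) against the mean level over the 4 arrays (horizontal axis, log2 RMA value), with 1 point per gene. The 1791 genes called higher are red, the 1906 called lower are blue and genes not called are grey. Falls reach -4.50 at RLBP1, whereas the largest rise is 2.89 at H2BC5.

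Rises and falls were spread unevenly over brightness and gene type. Genes were put in 5 bins of equal size by mean level over all 8 arrays. In the brightest bin 19.8% were called higher and 10.2% lower, and in the next one 13.4% higher and 16.7% lower. The middle bin had 5.01% higher and 10.8% lower, and the dimmest 0.267% higher and 1.58% lower. Protein-coding genes were called higher in 9.64% and lower in 9.84% of 17649 cases. Of 2234 long noncoding RNA genes, 48 were called higher and 98 lower (4.39%), with 33.5% of them above background, against 70.3% of protein-coding genes.

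Among the largest falls, OTX015 means ran from under the array background of 3.07 up to 5.40 for FERMT1, and DMSO means lay well above it. RLBP1 encodes the retinaldehyde-binding protein of retinal pigment epithelium and Müller glia. It read 3.74 and 3.88 with OTX015, against 8.20 and 8.42 with DMSO (-4.50 ± 0.14, limma adjusted p = 7.44e-06), a 22.6-fold fall. ITIH6, a member of the inter-alpha-trypsin inhibitor heavy chain family, read 3.45 and 3.46 with OTX015, against 7.21 and 7.47 with DMSO. In both genes the OTX015 arrays lay far below the DMSO arrays, with gaps many times the spread within a pair. CDH19, a cadherin known from Schwann cell precursors, read 2.39 and 3.07 with OTX015, against 6.01 and 6.15 with DMSO. That was a fall of at least 8.06-fold, since the OTX015 mean lay under background.

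BEST1, the bestrophin chloride channel gene of retinal pigment epithelium, read 3.99 and 4.46 with OTX015, against 7.39 and 7.57 with DMSO (-3.26 ± 0.19). It was not low with panobinostat, where it read 7.67 and 7.54, and OTX015 minus panobinostat was -3.38 ± 0.19. CMTM5, a membrane gene known from myelin-forming cells, read 4.74 and 4.51 with OTX015, against 7.74 and 7.79 with DMSO. SCRG1, a gene first described in scrapie-infected brain, read 4.15 and 3.78 with OTX015, against 7.25 and 6.94 with DMSO. For both the 2 groups were wide apart, and the panobinostat arrays were low as well, at 4.87 and 4.70 for CMTM5 and 3.04 and 3.14 for SCRG1.

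NLGN3 encodes neuroligin-3, a synaptic adhesion protein that promotes glioma growth when it is shed by neurons. It read 4.71 and 4.79 with OTX015, against 7.67 and 7.46 with DMSO (-2.82 ± 0.13, adjusted p = 3.64e-05). The remaining named genes among the 25 largest falls, besides ATP10B, CA14, CHI3L2 and NAV3, were ZHX2, RFTN2, TMEM229B, PRELP, FERMT1, ZNF618, NUPR1, ZNF488 and CRB1. Their differences ran from -3.45 for ZHX2, at least 6.66-fold, to -2.60 for CRB1, and the other 4 of the 25 were noncoding or pseudogene loci, LHFPL3-AS1 among them. NUPR1, a stress-induced chromatin protein gene, read 3.78 and 3.69 with OTX015, against 6.45 and 6.30 with DMSO. The long noncoding RNA SOX2-OT, which spans the SOX2 gene, read 3.17 and 2.62 with OTX015, against 5.91 and 5.63 with DMSO, a fall of at least 6.49-fold. All of the named falls stayed called when any one array was left out.

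**Figure D2:**
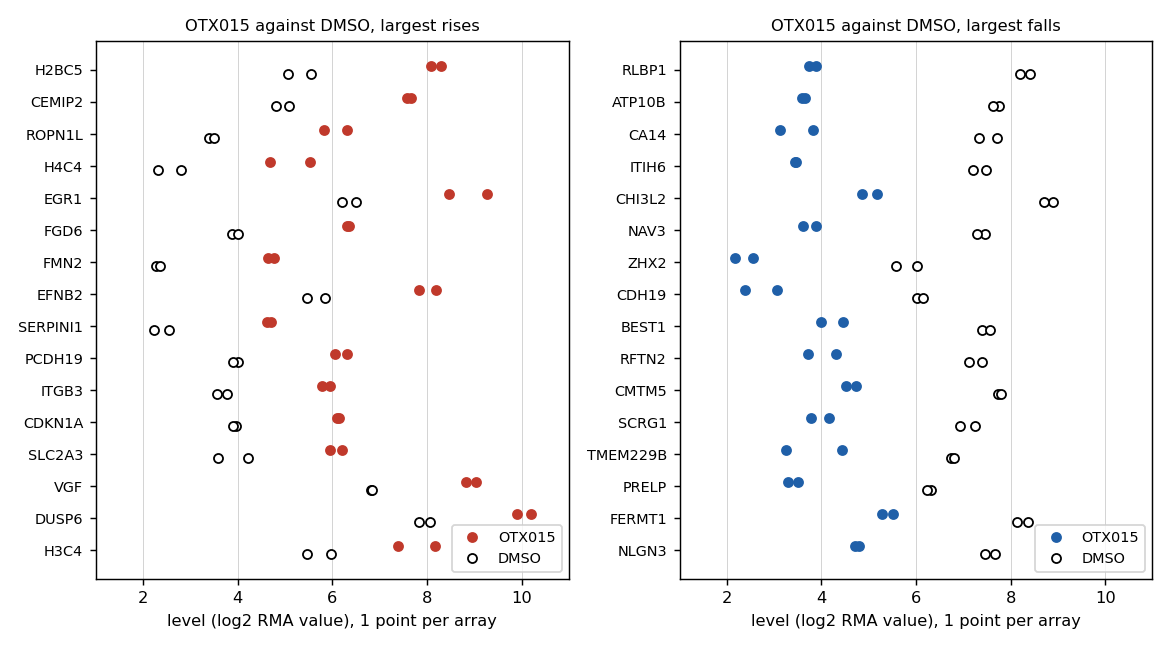
Level on each array (log2 RMA value, horizontal axis) for the 16 largest named rises (left) and the 16 largest named falls (right). Filled points are the 2 OTX015 arrays and open points the 2 DMSO arrays. In every row both OTX015 points lie beyond both DMSO points, from H2BC5 (2.89) to H3C4 (2.06) and from RLBP1 (-4.50) to NLGN3 (-2.82).

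The largest rise was smaller in size than the largest fall. ROPN1L, a gene known from sperm flagella and motile cilia, read 6.31 and 5.82 with OTX015, against 3.38 and 3.50 with DMSO (2.62 ± 0.22, 6.17-fold). FGD6, an exchange factor gene for the GTPase CDC42, read 6.32 and 6.36 with OTX015, against 3.87 and 4.01 with DMSO (2.40 ± 0.13). Within each group the 2 arrays were close, and the groups did not overlap.

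PCDH19, a protocadherin gene of neural progenitors, read 6.30 and 6.06 with OTX015, against 4.01 and 3.90 with DMSO. SLC2A3, the neuronal glucose transporter GLUT3, read 6.20 and 5.94 with OTX015, against 4.22 and 3.59 with DMSO. VGF, a secreted neuropeptide precursor, read 9.05 and 8.82 with OTX015, against 6.81 and 6.85 with DMSO. The groups were again well apart. FMN2, a formin that builds actin filaments, rose at least 3.11-fold, MIR378D2, a microRNA gene, at least 2.01-fold, and TSPAN5, a tetraspanin, by 1.85 on the log2 scale. ERN1, the endoplasmic reticulum stress sensor IRE1, rose at least 3.39-fold, with DMSO arrays under background. NEAT1, the noncoding RNA that builds paraspeckles, rose at least 2.20-fold, with OTX015 arrays at 4.01 and 4.40, against DMSO arrays at 2.66 and 1.99. Among the named rises, H3C4 and BORCS7 depended on single arrays. H3C4 (2.06 ± 0.40) had adjusted p = 0.0621 without DMSO 1 and 0.0807 without OTX015 2. BORCS7, a subunit of a complex that positions lysosomes, rose at least 2.05-fold (1.87 ± 0.50) and had 0.134 without DMSO 1, 0.1045 without DMSO 2, 0.145 without OTX015 1 and 0.147 without OTX015 2.

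Of 15 measured genes of the BET and P-TEFb circuit, 5 were higher, 1 was lower and 9 were not called, with a list median of 0.22. HEXIM1 read 7.39 and 7.20 with OTX015, against 5.87 and 5.61 with DMSO. BRD2, a BET gene itself, read 10.09 and 10.004 with OTX015, against 9.03 and 9.21 with DMSO (0.93 ± 0.13, adjusted p = 0.00229). The elongation factor genes ELL2 (1.40 ± 0.13) and AFF4 (0.80 ± 0.13) of the super elongation complex rose as well, and SERPINI1, the neuroserpin gene that this list carries as a known responder to BET inhibitors, rose at least 3.01-fold. For each of these genes the OTX015 arrays lay above the DMSO arrays.

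HEXIM2, the close relative of HEXIM1, fell at least 1.75-fold, with 3.12 and 3.02 with OTX015, at the background level, against 3.92 and 3.82 with DMSO. The HEXIM1 and HEXIM2 differences thus had opposite signs. BRD3 (0.32 ± 0.13, adjusted p = 0.148), the P-TEFb kinase CDK9 (0.22 ± 0.12), its cyclin CCNT1 (0.41 ± 0.13, adjusted p = 0.0653) and LARP7 (-0.07 ± 0.17), a subunit of the complex that holds P-TEFb inactive, were not called. BRDT lay under background in both groups.

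Of 31 genes of Mediator and RNA polymerase II, 3 were higher (1 to 2 with 1 array left out) and 2 lower. These shares, 9.68% and 6.45%, were near the 7.97% and 8.49% of all genes. POLR2A, the largest subunit of RNA polymerase II, read 9.57 and 9.39 with OTX015, against 8.55 and 8.52 with DMSO (0.94 ± 0.15). MED24 read 5.95 and 5.86 with OTX015, against 7.71 and 7.46 with DMSO (-1.68 ± 0.14), and MED12, of the kinase module of Mediator, fell by 0.88. The 2 groups did not overlap for any of the 3 genes. Of 22 histone acetylation enzymes, 3 were higher (1 with 1 array left out) and 4 lower (2 to 3). The deacetylase SIRT1 read 7.58 and 7.65 with OTX015, against 6.23 and 5.88 with DMSO (1.56 ± 0.18). The acetyltransferase gene KAT2A fell by 1.18 and HDAC8 by 1.04. HDAC1 (0.09 ± 0.14) and HDAC2 (0.06 ± 0.12) were not called, and HDAC3 (0.52 ± 0.12, adjusted p = 0.0206) lost its call whichever array was left out, with adjusted p from 0.0656 without DMSO 2 to 0.0999 without OTX015 1. Among 24 polycomb, trithorax and histone methylation genes, 4 were higher (2 to 3) and 5 lower (2 to 3). PHF19, a polycomb accessory factor, fell by 1.68 and KDM5B, a demethylase of histone H3, rose by 0.84, whereas the methyltransferase EZH2 was not called (0.08 ± 0.15).

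Core histone genes split in both directions, with 9 of 49 measured members higher (18.4%) and 7 lower (14.3%, or 2 to 5 members with 1 array left out). The list median was -0.08. H2BC5 read 8.09 and 8.30 with OTX015, against 5.55 and 5.06 with DMSO (2.89 ± 0.18), the largest rise of any gene. H2BC21 read 7.63 and 7.93 with OTX015, against 5.51 and 5.94 with DMSO (2.05 ± 0.21). H4C4 read 4.68 and 5.52 with OTX015, against 2.32 and 2.81 with DMSO, a rise of at least 4.08-fold. These genes stood well apart between the groups.

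H3C12 (1.68 ± 0.27) rose at least 1.85-fold and H2BC18 (1.69 ± 0.27) at least 1.16-fold, both with DMSO arrays under background. In the other direction, H3C11 read 8.95 and 9.35 with OTX015, against 10.41 and 10.34 with DMSO (-1.22 ± 0.21), and H2BC15 fell by 0.86. H4C3 (-0.75 ± 0.15) also fell, with adjusted p = 0.056 without DMSO 2 and 0.0757 without OTX015 2. Of 9 linker histone genes, 3 were lower (2 with 1 array left out) and 1 higher. H1-5 fell by 1.51 and H1-2 by 1.00, and H1-10, a replication-independent variant, rose by 0.99. Many histone genes are near copies of each other, so probes could be shared among members, and their values are less certain than those of other genes.

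Promoters of the 2 histone genes with the largest rises are shown, because histone promoters carry well-known short boxes. They are RefSeq windows of 300 bases in GRCh38.p14, from 250 bases before the annotated start to 50 after it, read on the gene's strand. H2BC5 lies at chr6:26157871-26158170 on the plus strand and H4C4 at chr6:26189063-26189362 on the minus strand. Capitals mark the CCAAT box (CCAAT) and the TATA box (TATAAA), searched on both strands.
H2BC5: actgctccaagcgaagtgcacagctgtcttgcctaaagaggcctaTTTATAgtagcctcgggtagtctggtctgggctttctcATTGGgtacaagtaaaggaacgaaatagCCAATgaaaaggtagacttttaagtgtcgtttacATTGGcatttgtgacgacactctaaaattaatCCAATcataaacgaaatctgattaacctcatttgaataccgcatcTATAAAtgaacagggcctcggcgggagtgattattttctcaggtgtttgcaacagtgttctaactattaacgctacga
H4C4: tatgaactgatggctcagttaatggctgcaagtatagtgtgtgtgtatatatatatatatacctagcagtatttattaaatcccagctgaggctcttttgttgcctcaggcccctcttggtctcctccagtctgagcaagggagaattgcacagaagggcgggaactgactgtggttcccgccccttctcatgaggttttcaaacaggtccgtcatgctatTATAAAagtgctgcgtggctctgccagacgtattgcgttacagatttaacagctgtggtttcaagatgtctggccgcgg
H2BC5 held 4 CCAAT boxes and 2 TATA boxes, the nearer one at -28 from the start. H4C4 held 0 CCAAT boxes and 1 TATA box, at -29. Over the core histones with a promoter sequence, 39 of 45 held a CCAAT box, against 36.2% of 16038 promoters, and 32 of 45 held a TATA box, against 9.49%. Of the called core histones, 9 higher and 7 lower, 11 were found to hold a CCAAT box and 7 a TATA box. Any called gene without a promoter sequence counts here as not found. H2AC7 and H3C4 were given the same window, which counts for both genes in the 39 and in the 11. Those with a CCAAT box included H2BC21, which rose, and H2BC15, which fell.

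**Figure D3:**
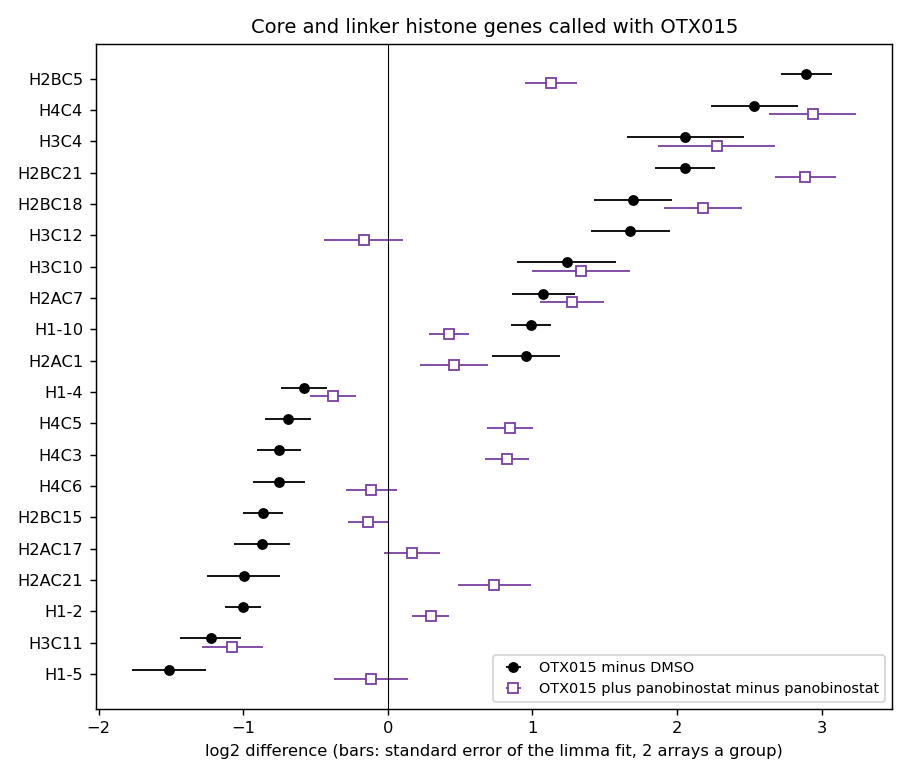
Log2 difference ± standard error (horizontal axis) for the 20 core and linker histone genes called with OTX015, ordered by OTX015 minus DMSO (filled circles). Open squares give OTX015 plus panobinostat minus panobinostat for the same genes. H2BC5, H4C4, H2BC21 and H2BC18 lie to the right of 0 in both, whereas H4C3 lies to the left with OTX015 alone (-0.75) and to the right on panobinostat (0.82).

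MYC fell, and lists of growth and biosynthesis genes held more falls than rises. MYC read 8.08 and 8.04 with OTX015, against 9.15 and 9.12 with DMSO (-1.07 ± 0.12), while MYCN was not called (0.21 ± 0.16, adjusted p = 0.437). In the MYC network list of 12 genes, 4 were lower (2 with 1 array left out) and 1 was higher (0 to 1). MLXIP, a glucose-sensing transcription factor, fell by 0.66 with adjusted p = 0.0598 without OTX015 2. MXD1, an antagonist of MYC, rose by 0.68 with adjusted p from 0.0781 without OTX015 1 to 0.108 without OTX015 2, and 0.104 without DMSO 2.

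Nearly all calls among the mitochondrial ribosomal proteins, which translate the mitochondrial genome, were falls. All 75 measured genes lay above background, 21 (28%) were lower and 1 was higher, and the family median was -0.31. With 1 array left out, 8 to 14 were lower and 0 to 1 higher. MRPL23 read 6.12 and 5.90 with OTX015, against 7.46 and 7.55 with DMSO (-1.50 ± 0.24). MRPL3 read 7.48 and 7.47 with OTX015, against 8.91 and 8.74 with DMSO (-1.35 ± 0.13). MRPL15 (-1.35 ± 0.18) and MRPL11 (-1.24 ± 0.18) fell by like amounts, and in each of the 4 genes the OTX015 arrays were the lower pair.

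Other large complexes had fewer calls, and their shares called lower were near the 8.49% of all genes. They were 10.2% for cytosolic ribosomal proteins, 5.88% for NADH dehydrogenase, 11.1% for ATP synthase and 11.6% for the proteasome. Of 59 cytosolic ribosomal proteins, 6 were lower (10.2%, or 3 to 4 with 1 array left out) and 0 higher, with a median of -0.23. RPL27A read 3.91 and 4.09 with OTX015, against 5.37 and 5.60 with DMSO. RPS26 read 6.26 and 6.01 with OTX015, against 7.75 and 7.23 with DMSO. Ribosomal protein genes have many processed copies in the genome, so these values are uncertain. Of 34 subunits of NADH dehydrogenase, 2 were lower (1 to 2) and 0 higher (median -0.16). Of 18 ATP synthase subunits, 2 were lower (0 to 1) and 0 higher (median -0.13). Of 43 proteasome subunits and assembly factors, 3 were higher (0 to 1) and 5 lower (1 to 3), against 7.97% and 8.49% of all genes.

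The host genes of small nucleolar RNAs, which guide the chemical modification of ribosomal RNA, fell more often than the members of any other list or family counted here. Of 22 measured hosts, 10 were lower (45.5%, or 6 to 9 with 1 array left out) and 0 higher, and the median was -0.46. SNHG15 read 4.03 and 3.89 with OTX015, against 5.38 and 5.50 with DMSO (-1.48 ± 0.17). SNHG20 (-1.01 ± 0.16) and SNHG8 (-1.002 ± 0.14) also fell, and SNHG3 (-1.05 ± 0.21) did so with adjusted p = 0.064 without DMSO 2, 0.0715 without OTX015 1 and 0.0609 without OTX015 2. The small nucleolar RNAs themselves were called in 4 of 336 cases higher and 10 lower, below the share of all genes, with 2 to 4 higher and 0 to 13 lower when 1 array was left out.

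Genes of serine, one-carbon and amino acid metabolism fell in 10 of 25 cases (40%, or 5 to 8 with 1 array left out) and rose in 2 (1 to 2). MTHFD1L, a mitochondrial enzyme of folate metabolism, read 5.62 and 5.46 with OTX015, against 6.96 and 7.08 with DMSO (-1.48 ± 0.16). SLC6A9, the glycine transporter GLYT1, read 3.98 and 4.26 with OTX015, against 5.51 and 5.57 with DMSO. TRIB3, a pseudokinase gene of the amino acid response, read 5.26 and 5.21 with OTX015, against 6.74 and 6.88 with DMSO. In these 3 genes the groups were well separated.

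CBS, the first enzyme of the route that turns homocysteine into cysteine, fell by 1.07, while CTH, the second enzyme, rose by 1.06. SLC7A11, the cystine importer, read 8.62 and 8.48 with OTX015, against 7.74 and 7.57 with DMSO (0.90 ± 0.17), with adjusted p = 0.0522 without DMSO 2 and 0.0641 without OTX015 1. Of 17 aminoacyl-tRNA synthetase genes, 4 were lower (VARS1 by 0.78, LARS1 by 0.75) and 0 higher, with a median of -0.30. The amino acid response factor ATF4 (0.05 ± 0.13) and its target ASNS (0.31 ± 0.15) were not called.

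Among MYC targets in growth, 11 of 28 were lower (39.3%, or 7 to 10 with 1 array left out) and 0 higher, with a median of -0.40. SLC19A1, the folate carrier, read 5.01 and 4.83 with OTX015, against 6.70 and 6.56 with DMSO (-1.71 ± 0.15), and the 2 groups did not overlap. Their promoters were searched for the E-box CACGTG, the letters MYC is known to bind. It was held by 10 of 22 promoters of the list, against 8.74% of all promoters, 12.4% of those of genes called lower and 9.69% of those of genes called higher. Of the 10, 4 belonged to called genes. SRM, the spermidine synthase gene, fell most among these 4 and is shown for that reason, in GRCh38.p14 at chr1:11059969-11060268 on the minus strand with the E-box in capitals.
SRM: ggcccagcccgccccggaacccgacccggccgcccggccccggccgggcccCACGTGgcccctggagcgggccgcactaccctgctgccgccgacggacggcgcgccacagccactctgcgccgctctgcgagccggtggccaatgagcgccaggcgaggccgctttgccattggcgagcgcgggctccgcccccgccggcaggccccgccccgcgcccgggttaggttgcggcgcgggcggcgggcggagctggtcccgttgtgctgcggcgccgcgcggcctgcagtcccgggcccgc
SRM read 9.66 and 9.58 with OTX015, against 10.43 and 10.50 with DMSO (-0.85 ± 0.14).

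Targets of NRF2, the transcription factor of the antioxidant response, had the largest share of rises among the lists. Of 23 measured genes, 14 were higher (60.9%, or 8 to 13 with 1 array left out) and 0 lower, with a median of 0.89. EPHX1, an epoxide hydrolase, read 9.14 and 9.13 with OTX015, against 7.55 and 7.24 with DMSO (1.74 ± 0.14). NQO1, a quinone reductase, read 11.30 and 11.08 with OTX015, against 9.89 and 9.55 with DMSO (1.47 ± 0.17). SRXN1, which repairs oxidised peroxiredoxins, read 8.63 and 8.20 with OTX015, against 6.91 and 6.82 with DMSO. The OTX015 arrays were the upper pair in each. NFE2L2, which encodes NRF2, and KEAP1, its inhibitor, were not called (0.23 ± 0.17 and -0.49 ± 0.16).

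The core of the antioxidant response element (TGACNNNGC, both strands) was held by 4 of 17 promoters of the list, against 14.6% of all promoters and 15.5% of those of genes called higher. TXNRD1, the thioredoxin reductase gene, and GCLM, the modifier subunit of the enzyme that begins glutathione synthesis, had the largest rises of the 3 called genes that held it. Their windows in GRCh38.p14 lie at chr12:104215529-104215828 on the plus strand and chr1:93909381-93909680 on the minus strand, with the core in capitals.
TXNRD1: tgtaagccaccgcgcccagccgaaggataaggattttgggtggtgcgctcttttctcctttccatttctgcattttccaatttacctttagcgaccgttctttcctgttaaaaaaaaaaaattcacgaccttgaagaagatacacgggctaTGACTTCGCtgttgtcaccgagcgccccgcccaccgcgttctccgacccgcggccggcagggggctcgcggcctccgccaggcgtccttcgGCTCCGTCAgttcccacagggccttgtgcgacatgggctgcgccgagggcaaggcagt
GCLM: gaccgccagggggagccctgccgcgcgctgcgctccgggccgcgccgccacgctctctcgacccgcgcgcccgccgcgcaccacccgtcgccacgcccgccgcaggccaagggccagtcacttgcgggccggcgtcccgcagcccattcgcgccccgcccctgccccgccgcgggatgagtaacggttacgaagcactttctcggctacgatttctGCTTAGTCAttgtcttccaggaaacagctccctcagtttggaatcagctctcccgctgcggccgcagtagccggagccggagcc
TXNRD1 read 10.23 and 10.02 with OTX015, against 8.81 and 8.63 with DMSO (1.40 ± 0.14). GCLM read 7.22 and 7.03 with OTX015, against 6.33 and 5.70 with DMSO (1.11 ± 0.22), with adjusted p = 0.0513 without DMSO 2 and 0.079 without OTX015 1.

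Genes of lysosomes and autophagy rose in 11 of 29 cases (37.9%, or 6 to 8 with 1 array left out) and fell in 1 (0 to 1), with a median of 0.38. The V-ATPase, the proton pump that acidifies lysosomes, had 6 of 23 subunits higher (3 to 5) and 1 lower (0 to 1), with a median of 0.35. SQSTM1, the autophagy receptor p62, read 10.80 and 10.69 with OTX015, against 9.52 and 9.29 with DMSO (1.34 ± 0.13). ATP6V1D read 7.67 and 7.68 with OTX015, against 6.57 and 6.65 with DMSO, and the cholesterol exporter NPC1 of the lysosome rose by 1.09. The groups did not overlap in any of these genes.

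The lysosomal E-box TCACGTGA, which contains CACGTG, was held by 5 of 23 promoters of the list, against 1.42% of all promoters. Genes called higher held it in 2.66% of promoters and genes called lower in 2.04%. Of the 5, 4 belonged to called genes, and among these GAA, with 2 copies, fell (-0.445). GAA was the only gene of the list called lower. Its call did not hold in every fit with an array left out, nor in every alternative that kept all arrays. MCOLN1, the lysosomal calcium channel mucolipin-1, rose most among the called genes that held it, and its window carries 2 copies, at chr19:7522374-7522673 on the plus strand in GRCh38.p14, with both copies in capitals.
MCOLN1: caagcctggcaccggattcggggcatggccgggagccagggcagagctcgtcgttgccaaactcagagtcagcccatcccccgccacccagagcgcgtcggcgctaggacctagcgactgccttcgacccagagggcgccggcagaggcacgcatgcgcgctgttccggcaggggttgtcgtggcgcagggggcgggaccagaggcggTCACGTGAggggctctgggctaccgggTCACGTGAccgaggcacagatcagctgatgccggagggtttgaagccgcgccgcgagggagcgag
MCOLN1 read 8.15 and 8.06 with OTX015, against 7.32 and 7.12 with DMSO (0.88 ± 0.16).

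**Figure D4:**
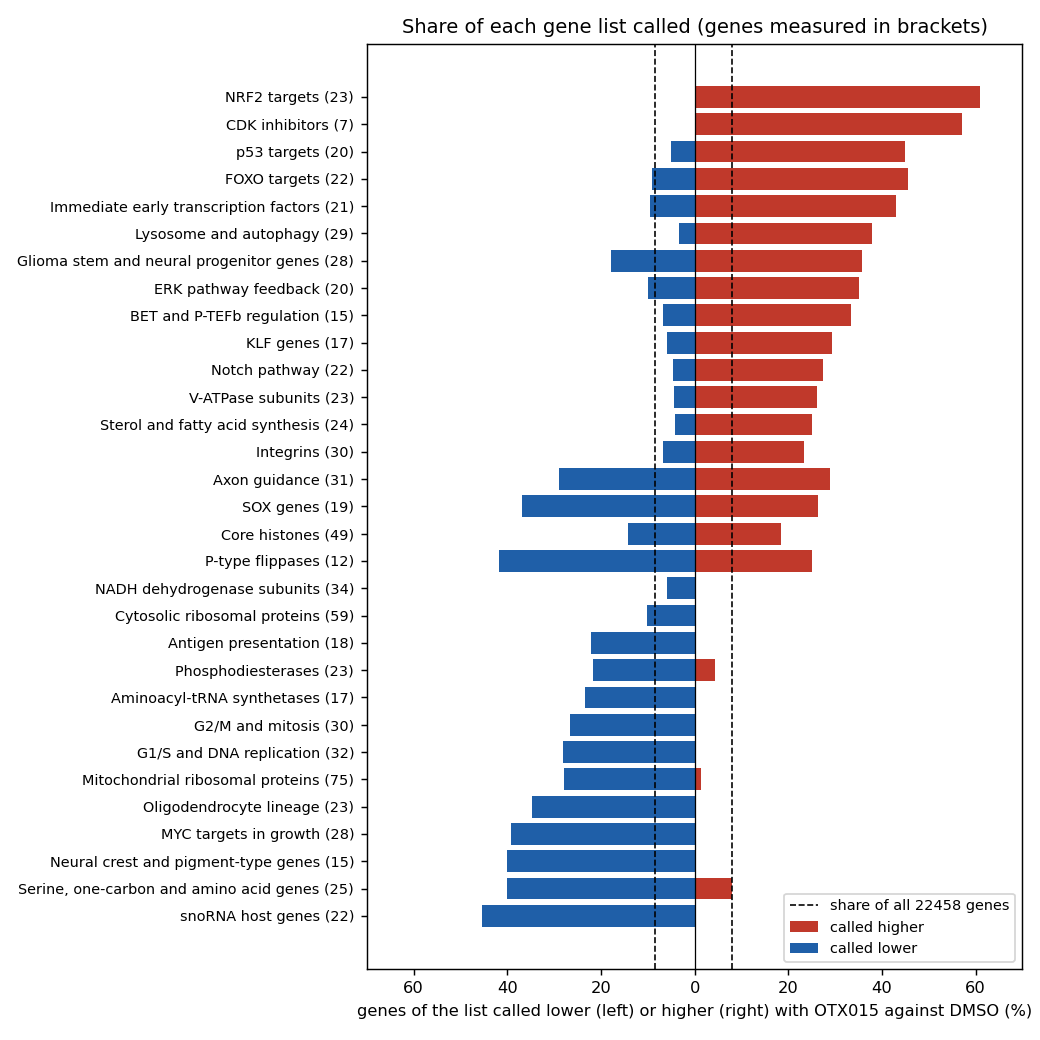
Percent of the measured genes of 31 lists and families called higher (red, right) or lower (blue, left) with OTX015 against DMSO, with the number of genes in brackets. Dashed lines mark the shares of all genes, 7.97% higher and 8.49% lower. NRF2 targets reach 60.9% higher with 0 lower, and the host genes of small nucleolar RNAs 45.5% lower with 0 higher.

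Sterol genes and glucose uptake genes had more rises than falls. Of 24 sterol and fatty acid synthesis genes, 6 were higher (2 to 4 with 1 array left out) and 1 lower (1 to 2). INSIG1, which retains the sterol-sensing complex in the endoplasmic reticulum, read 9.62 and 9.50 with OTX015, against 8.29 and 8.09 with DMSO (1.37 ± 0.14). Of 21 glycolysis and glucose uptake genes, 6 were higher (2 to 3) and 2 lower (0 to 1), led by SLC2A3. Of 11 metallothioneins, 2 were higher (1 to 2) and 2 lower (0 to 2), with MT2A at 5.38 and 5.62 with OTX015, against 4.06 and 4.27 with DMSO (1.33 ± 0.18).

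Lineage genes changed in both directions. Of 23 oligodendrocyte lineage genes, 8 were lower (34.8%) and 0 higher, with a median of -0.36. SOX10, the transcription factor that drives oligodendrocyte and neural crest identity, read 7.30 and 7.48 with OTX015, against 9.06 and 9.26 with DMSO (-1.77 ± 0.21). ZNF488, a partner of OLIG2 in oligodendrocyte maturation, read 3.86 and 3.80 with OTX015, against 6.39 and 6.52 with DMSO. MYRF, the regulator of myelin genes, read 4.03 and 3.65 with OTX015, against 5.61 and 5.71 with DMSO. All OTX015 arrays lay below all DMSO arrays.

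ENPP6, a choline phosphodiesterase of newly formed oligodendrocytes, fell at least 2.98-fold, and CSPG4, the NG2 proteoglycan of oligodendrocyte precursors, fell by 1.63. OLIG2 (-0.56 ± 0.15) had adjusted p = 0.0834 without DMSO 1, 0.154 without DMSO 2 and 0.217 without OTX015 1. OLIG1 was not called (-0.26 ± 0.17), and PDGFRA lay under background in both groups. Of 15 neural crest and pigment-type genes, 6 were lower and 0 higher. TYRP1, a melanosome enzyme gene, fell at least 5.29-fold, and ERBB3, the neuregulin receptor of glial precursors, read 5.65 and 5.81 with OTX015, against 8.10 and 8.44 with DMSO (-2.54 ± 0.16).

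The stem and progenitor list moved both ways, with 10 of 28 genes higher (35.7%, or 5 to 9 with 1 array left out) and 5 lower (17.9%, or 2 to 4). SOX11, a transcription factor of immature neurons and progenitors, read 8.61 and 8.76 with OTX015, against 7.17 and 6.95 with DMSO (1.62 ± 0.14). SOX21 read 8.27 and 8.15 with OTX015, against 7.16 and 6.69 with DMSO (1.29 ± 0.18). PROM1, the surface antigen CD133, read 5.33 and 5.64 with OTX015, against 7.45 and 7.25 with DMSO (-1.86 ± 0.18). The 3 genes thus moved apart with no overlap between the groups.

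VIM, the intermediate filament vimentin, rose by 1.00, and MSI1, an RNA-binding protein of neural stem cells, fell by 1.12 with adjusted p = 0.0743 without OTX015 2. SOX2 read 10.65 and 10.64 with OTX015, against 10.14 and 10.06 with DMSO (0.55 ± 0.12). Its adjusted p was 0.0743 without DMSO 2, 0.0805 without OTX015 1 and 0.076 without OTX015 2. Over the whole SOX family, 5 of 19 genes were higher (3 to 5) and 7 lower (4 with 1 array left out). The falls included SOX10, SOX6 (-1.31 ± 0.18), SOX1 (-0.98 ± 0.13) and SOX8 (-0.95 ± 0.14), and the rises SOX9 (0.79 ± 0.13) and SOX4 (0.70 ± 0.13), the last with adjusted p = 0.0537 without OTX015 2. SLC1A3, the astrocyte glutamate transporter, fell by 1.65, the 1 fall among 16 astrocyte markers, of which 2 were higher (0 to 2).

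The Notch pathway, in which receptors on one cell are switched on by ligands of its neighbour, had 6 of 22 genes higher (3 to 5 with 1 array left out) and 1 lower (0 to 1). JAG1, a ligand, read 7.57 and 7.05 with OTX015, against 6.14 and 5.70 with DMSO (1.39 ± 0.22). HEY2, a target repressor, read 5.67 and 5.41 with OTX015, against 3.59 and 3.67 with DMSO (1.91 ± 0.14). HES5, another target repressor, read 6.48 and 6.75 with OTX015, against 5.34 and 4.78 with DMSO (1.56 ± 0.30), with adjusted p = 0.0585 without DMSO 2 and 0.0711 without OTX015 2. The groups did not overlap in the 3 genes. HES1 (0.82 ± 0.16) had adjusted p = 0.0612 without OTX015 1. In the Wnt pathway 3 of 26 genes were higher (11.5%) and 2 lower (7.69%), against 7.97% and 8.49% of all genes. Among them were the receptor genes FZD3 (1.46 ± 0.14) and LGR5 (-1.58 ± 0.15). In the Hedgehog pathway 3 of 11 were higher (1) and 2 lower (0 to 1), with the co-receptor CDON at 1.27 ± 0.16.

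Of 1097 microRNA genes, 38 were called, 20 of them above background in at least 1 group, and 35 had a mature sequence in RefSeq. The share was below that of all genes. The array read the RNA of these loci after whole-transcript labelling, and the sources used here do not say that it measured mature microRNAs. The mature sequences of 4 of the genes that fell are shown: MIR221 and MIR222 share a seed (bases 2 to 8, in capitals), MIR219A2 belongs to the oligodendrocyte lineage, and MIR4534 lies beside SOX10. MIR221 and MIR222 lie together on chromosome X at chrX:45746180-45746202 and chrX:45747036-45747056, on the minus strand of GRCh38.p14. MIR219A2 lies at chr9:128392676-128392696 on the minus strand and MIR4534 at chr22:37988829-37988845 on the plus strand, within POLR2F (-0.17 ± 0.14) and next to SOX10.
hsa-miR-221-3p: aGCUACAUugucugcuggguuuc
hsa-miR-222-3p: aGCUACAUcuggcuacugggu
hsa-miR-219a-5p: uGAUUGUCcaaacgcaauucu
hsa-miR-4534: gGAUGGAGgaggggucu
MIR221 read 3.73 and 4.40 with OTX015, against 4.99 and 5.23 with DMSO (-1.04 ± 0.23), with adjusted p = 0.094 without DMSO 2 and 0.09996 without OTX015 1. MIR222 read 3.68 and 3.33 with OTX015, against 4.17 and 4.55 with DMSO (-0.85 ± 0.18), with 0.0792 without DMSO 2 and 0.102 without OTX015 2. MIR219A2, whose product is known to promote oligodendrocyte maturation in mice, read 2.96 and 4.26 with OTX015, against 4.77 and 5.56 with DMSO (-1.55 ± 0.39). Its adjusted p was 0.153 without DMSO 2 and 0.129 without OTX015 1. MIR219B, on the opposite strand of the same locus, lay under background in both groups.
MIR4534 read 4.15 and 4.97 with OTX015, against 5.54 and 6.65 with DMSO (-1.53 ± 0.39), with 0.141 without DMSO 2 and 0.184 without OTX015 1. All 4 microRNA genes were lower on both OTX015 arrays, and each call hung on at least 1 array.

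Among growth signalling genes, most calls in receptors were falls and most in feedback regulators were rises. Of 22 receptor tyrosine kinase genes of glioma, 4 were lower and 1 higher. Besides ERBB3, NTRK2, a neurotrophin receptor, fell by 1.06, and FGFR1 read 8.03 and 7.82 with OTX015, against 6.86 and 6.93 with DMSO (1.03 ± 0.13). EGFR was not called (0.31 ± 0.14, adjusted p = 0.208). Of 20 feedback genes of the ERK pathway, 7 were higher (2 to 6 with 1 array left out) and 2 lower (0 to 1).

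DUSP6, a phosphatase that switches ERK off, read 10.20 and 9.90 with OTX015, against 8.07 and 7.83 with DMSO (2.10 ± 0.16). SPRED1, an inhibitor of RAF activation, rose by 0.83. Over 23 dual specificity phosphatases, 6 were higher and 3 lower. DUSP26 read 6.02 and 6.20 with OTX015, against 8.41 and 8.26 with DMSO (-2.23 ± 0.16), and DUSP9 fell by 2.11. DUSP6 and DUSP26 thus moved in opposite directions by over 4-fold each.

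Of 21 immediate early transcription factor genes, 9 were higher (4 to 7 with 1 array left out) and 2 lower. EGR1 read 9.27 and 8.46 with OTX015, against 6.21 and 6.51 with DMSO (2.50 ± 0.25). KLF2 (1.37 ± 0.21) and JUND (1.11 ± 0.13) rose, and FOS (1.50 ± 0.28) rose with adjusted p = 0.0525 without DMSO 2. NR4A1, an orphan nuclear receptor of the same class, read 4.96 and 4.97 with OTX015, against 7.04 and 6.87 with DMSO (-1.996 ± 0.13), and NR4A2 fell by 0.78. EGR1 and NR4A1 each had groups far apart, in opposite directions. Among 31 growth factors and cytokines, 4 were higher (2 to 3) and 1 lower (1 to 2). These shares were 12.9% higher and 3.23% lower, against 7.97% and 8.49% of all genes. VGF and HBEGF (1.14 ± 0.15), a ligand of the EGF receptor, were among the rises. BMP4 read 4.82 and 4.49 with OTX015, against 6.17 and 6.10 with DMSO (-1.48 ± 0.16).

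In the FOXO and p53 target lists more called members were higher than lower, with 10 of 22 FOXO targets higher (5 to 7 with 1 array left out) and 2 lower (1 to 2), and 9 of 20 p53 targets higher and 1 lower. TXNIP, an inhibitor of thioredoxin and of glucose uptake, read 9.60 and 9.84 with OTX015, against 7.80 and 7.87 with DMSO (1.89 ± 0.16). SESN3, a sestrin that restrains mTORC1, read 9.14 and 9.38 with OTX015, against 7.48 and 7.38 with DMSO (1.83 ± 0.14). CDKN1A, the cell cycle inhibitor p21, read 6.14 and 6.10 with OTX015, against 3.96 and 3.90 with DMSO (2.19 ± 0.13). In all 3 the OTX015 arrays were the upper pair by a wide margin. GADD45A (1.53 ± 0.14) and TP53INP1 (1.50 ± 0.20) rose, and AEN, a p53-induced nuclease gene, fell by 1.16.

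Most members of both cell cycle lists were not called, and those that were called were lower. Of 30 genes of G2/M and mitosis, 8 were lower (2 to 4 with 1 array left out) and 0 higher, and of 32 genes of G1/S and DNA replication 9 were lower (4 to 7) and 0 higher, with medians of -0.32 and -0.27. FOXM1, which drives mitotic genes, read 7.28 and 7.15 with OTX015, against 8.45 and 8.35 with DMSO (-1.19 ± 0.12), and E2F8 fell by 1.46. The inhibitors CDKN2D (1.09 ± 0.18) and CDKN2B (0.98 ± 0.17) rose beside CDKN1A. CCND1 (-0.40 ± 0.17), CCND2 (0.13 ± 0.13) and CDK6 (-0.43 ± 0.16) were not called. In the BCL2 family 4 of 18 genes were higher (2 to 4) and 1 lower (0 to 1). The survival gene MCL1 (0.89 ± 0.14) and the death-promoting gene BCL2L11 (1.20 ± 0.17) rose together, and BCL2 (-0.22 ± 0.20) and BCL2L1 (-0.30 ± 0.14) were not called.

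Adhesion, guidance and cytoskeletal genes changed in both directions. Of 30 integrin genes, 7 were higher (4 to 6 with 1 array left out) and 2 lower. ITGB3 read 5.78 and 5.95 with OTX015, against 3.55 and 3.76 with DMSO (2.20 ± 0.15), and ITGB1, the subunit shared by most integrins, read 7.11 and 7.10 with OTX015, against 5.81 and 5.84 with DMSO (1.28 ± 0.15). ITGB5 fell by 1.02. Among the cadherins, CDH2, the neural N-cadherin, read 8.48 and 8.48 with OTX015, against 7.01 and 7.13 with DMSO (1.41 ± 0.12), whereas CDH11 fell by 1.38 and CDH19 fell as above. Rises and falls in these genes had no overlap between the groups.

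Enzymes of the matrix sugar hyaluronan moved in opposite directions. HAS2, a synthase, read 4.28 and 4.64 with OTX015, against 7.11 and 6.99 with DMSO (-2.59 ± 0.17), and CEMIP2, reported as a cell-surface hyaluronidase, read 7.66 and 7.57 with OTX015, against 5.09 and 4.81 with DMSO (2.67 ± 0.15). COL9A1, a cartilage-type collagen gene, fell by 2.148. Matrix and protease genes were called higher in 10.5% and lower in 13.2% of cases, against 7.97% and 8.49% of all genes. Over the 38 matrix and protease genes, 4 were higher (2 to 3) and 5 lower (2 to 4).

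Of 31 axon guidance genes, 9 were higher and 9 lower (29% each), against 7.97% and 8.49% of all genes. The ligands EFNB2 (2.36 ± 0.18), SEMA3C (2.04 ± 0.14) and EFNB1 (1.46 ± 0.16) rose. SEMA3C read 5.63 and 5.57 with OTX015, against 3.46 and 3.65 with DMSO. The plexin receptor PLXNB3 read 5.63 and 5.52 with OTX015, against 7.67 and 8.06 with DMSO (-2.29 ± 0.15), and PLXNB1 fell by 1.43. DCC, the netrin receptor, fell at least 4.23-fold and SEMA3E at least 3.17-fold.

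Of 40 kinesins, 3 were higher (7.5%, or 1 to 2 with 1 array left out) and 5 lower (12.5%, or 2 to 3), against 7.97% and 8.49% of all genes. KIF13B read 8.70 and 8.52 with OTX015, against 6.89 and 6.66 with DMSO (1.84 ± 0.14), and KIF26B fell at least 4.61-fold. Of 12 P-type flippases, which move lipids between the leaflets of membranes, 3 were higher and 5 lower (3 to 4). ATP8A1 rose by 1.17 and ATP9A fell by 1.43, beside the fall of ATP10B by 4.07.

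Of 98 potassium channel genes and partners, 6 were lower (6.12%, against 8.49% of all genes) and 2 higher (2.04%, against 7.97%, or 0 to 2 genes with 1 array left out). KCNIP3 read 4.79 and 4.79 with OTX015, against 6.64 and 6.76 with DMSO (-1.91 ± 0.13), and KCNJ10, the inward rectifier Kir4.1 of glia, fell by 1.51. Of 21 ionotropic glutamate receptor genes, 3 were lower (1 to 2 with 1 array left out) and 0 higher. GRIA2, the AMPA receptor subunit that sets calcium permeability, read 4.18 and 4.30 with OTX015, against 6.07 and 6.20 with DMSO (-1.89 ± 0.13). Of 23 phosphodiesterases, 5 were lower (3 to 4) and 1 higher, and PDE7B read 5.36 and 5.65 with OTX015, against 8.10 and 7.50 with DMSO (-2.29 ± 0.20). In the 3 genes given per array the groups did not overlap. Above background in at least 1 group lay 38 of 98 potassium channel genes, 12 of 21 glutamate receptor genes and 13 of 23 phosphodiesterases.

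Other developmental and surface families changed in few members. Above background in at least 1 group lay 12 of 29 HOX genes and 37 of 52 FOX genes. HOX genes were called higher in 0% and lower in 10.3% of cases, against 7.97% and 8.49% of all genes. For FOX genes the shares were 1.92% and 11.5%. Of 29 HOX genes, 0 were higher and 3 lower (1 to 2 with 1 array left out), with HOXD3 lower by at least 3.85-fold, and of 52 FOX genes 1 was higher (0 to 1) and 6 lower (3 to 5), with FOXP2 lower by at least 4.13-fold. Of 17 KLF genes, 5 were higher (3 to 4) and 1 lower (1 to 2). ADGRG1, an adhesion receptor of neural progenitors, read 7.04 and 6.93 with OTX015, against 9.37 and 9.42 with DMSO (-2.41 ± 0.16). The zinc finger ZNF genes, 508 in all, were higher in 45 cases (17 to 33, 8.86%) and lower in 38 (20 to 30, 7.48%), near the shares of all genes.

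Among immune genes, those of antigen presentation had 4 of 18 members lower (22.2%) and 0 higher. PSMB8, an immunoproteasome subunit, read 5.38 and 5.50 with OTX015, against 7.04 and 7.05 with DMSO (-1.60 ± 0.23). TAPBP, the peptide loader tapasin, fell by 1.01, and TAP2, a peptide transporter subunit, by 0.94. The list median was -0.04, beside -0.02 over all genes. Many genes of the next lists lay at background, where a change could be missed. Above it in at least 1 group lay 13 of 26 interferon response genes, 7 of 35 chemokines and 10 of 21 NF-kB targets. Interferon response genes were called higher in 7.69% and lower in 3.85% of cases, against 7.97% and 8.49% of all genes. The shares were 0% and 2.86% for chemokines, and 4.76% each way for NF-kB targets. Of 26 interferon response genes 2 were higher (1 to 2 with 1 array left out) and 1 lower (0 to 1), and of 35 chemokines 0 were higher and 1 lower (0 to 1). Of 21 NF-kB targets 1 was higher (0) and 1 lower (0 to 2). NFKB1 fell by 1.11, with adjusted p = 0.0648 without OTX015 1, and IRF7 rose by 1.10.

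In stress responses, ERN1 rose while XBP1, the transcription factor gene whose RNA the ERN1 protein splices, read 6.58 and 6.33 with OTX015, against 7.94 and 7.73 with DMSO (-1.38 ± 0.18). Of the 18 genes of the unfolded protein response, 4 were higher (1 to 4) and 3 lower (1). DDIT3, the stress factor CHOP, was not called (-0.06 ± 0.15). Of 16 heat shock response genes, 1 was higher (0 to 2) and 3 lower (0 to 2).

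OTX015 combined with panobinostat, set against panobinostat alone, gave a second measurement of OTX015 on arrays that OTX015 minus DMSO does not use, apart from the spread that all groups share in the fit. OTX015 plus panobinostat against panobinostat called 2342 genes (10.4%), 972 higher and 1370 lower. Over all genes, 53.3% had a positive difference in that comparison. Of the 1791 genes higher with OTX015 alone, 773 (43.2%) had a positive difference there, 162 were called higher and 240 called lower. Of the 1906 genes lower with OTX015 alone, 1206 (63.3%) had a negative difference, 283 were called lower and 91 called higher. The 445 genes called in the same direction made up 12% of the genes called with OTX015 alone and 19% of those called on panobinostat. Across all genes the 2 sets of differences had r = 0.070 and rho = 0.043, given as a description, since genes are not independent replicates.

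A small core rose in both backgrounds. HEXIM1 read 7.86 and 8.24 with both drugs, against 6.41 and 6.42 with panobinostat (1.64, adjusted p = 0.00158). BRD2 read 10.71 and 10.72 with both drugs, against 9.35 and 9.21 with panobinostat (1.43). POLR2A read 9.74 and 9.54 with both drugs, against 8.63 and 8.32 with panobinostat (1.17). These 3 genes of transcription control therefore rose with OTX015 with and without panobinostat, and for none of them was the difference between the 2 effects called.

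Some histone genes also rose in both backgrounds. H2BC21 read 9.62 and 9.81 with both drugs, against 6.60 and 7.05 with panobinostat (2.89), and H4C4 read 6.70 and 6.64 with both drugs, against 3.44 and 4.03 with panobinostat (2.94). H2BC5 rose by 1.13 on panobinostat and by 2.89 without it, and here the difference between the 2 effects was called (limma adjusted p = 0.00394). Over the 49 core histones, 17 were called higher and 1 lower on panobinostat, against 9 higher and 7 lower with OTX015 alone. KLF2 (1.83), MCL1 (1.07) and JUND (0.92) also rose on panobinostat, and MYC fell by 0.80, with 5.53 and 5.49 with both drugs, against 6.32 and 6.31 with panobinostat.

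Programmes that rose with OTX015 alone did not all behave alike on panobinostat. There, 7 of 21 immediate early transcription factor genes were called higher and 0 lower, against 972 and 1370 of all 22458 genes. EGR1 was not among them (0.14, limma adjusted p = 0.781). Of 24 sterol and fatty acid synthesis genes, 8 were called higher and 0 lower on panobinostat. Some other programmes did not rise there, and several of their genes went the other way. Of the 23 NRF2 targets, 0 were called higher and 8 lower there, and of the 20 ERK feedback genes 0 higher and 10 lower. SESN3 read 6.97 and 7.18 with both drugs, against 8.71 and 8.80 with panobinostat (-1.67). SEMA3C read 6.10 and 6.22 with both drugs, against 7.61 and 7.38 with panobinostat (-1.34), and JAG1 (-1.19) and ITGB1 (-1.26) fell as well. For each of these 4 genes the difference between the 2 OTX015 effects was called by the interaction term, as it was for 3086 genes (13.7%) in all. Genes such as NAV3 and KIF26B were already near background with panobinostat, at 3.71 and 3.48 for NAV3 and 2.91 and 2.92 for KIF26B, which left little range for a further fall.

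**Figure D5:**
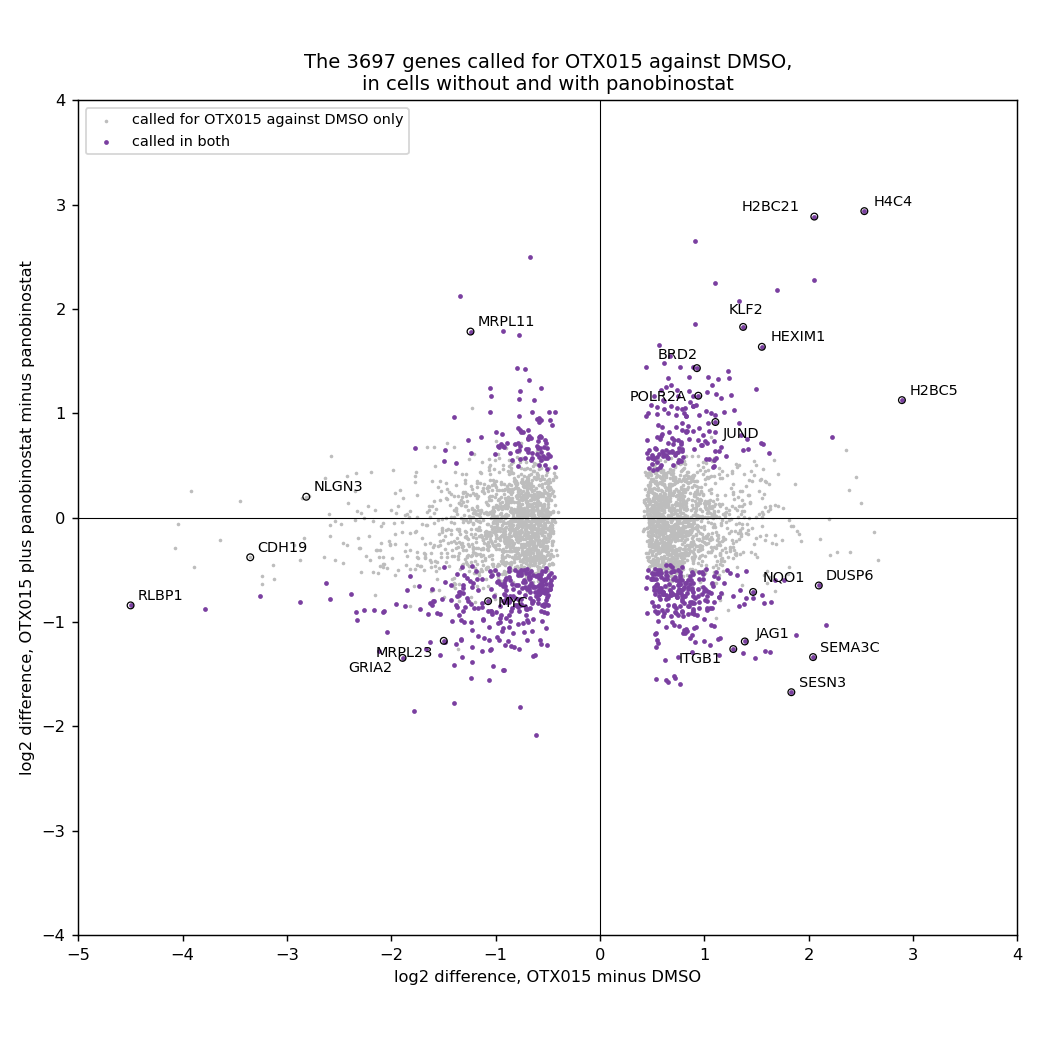
Log2 difference for OTX015 minus DMSO (horizontal axis) and for OTX015 plus panobinostat minus panobinostat (vertical axis), for the 3697 genes called in the first comparison. Purple points were called in both. H4C4, H2BC21 and HEXIM1 lie in the upper right, whereas SESN3, SEMA3C, JAG1 and ITGB1 lie in the lower right, and RLBP1 lies at the far left, at -4.50 and -0.84.

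Set directly beside panobinostat at the same dose and time, OTX015 differed in 6582 genes (29.3%), with 2979 higher and 3603 lower with OTX015. Centring each array on a common median moved that split to 4088 higher and 2776 lower, so the balance of directions depends on the scaling. Lineage factors were among the genes described above that differed. SOX10 was higher by 3.36 with OTX015 than with panobinostat, where it read 4.16 and 3.91. SOX21 was higher by 4.32 with OTX015 than with panobinostat, where it read 3.77 and 4.01, and OLIG1 was higher by 3.47 than with panobinostat, where it read 4.80 and 4.56. NQO1 was higher with OTX015 by 3.59 and FOXM1 by 2.88, and DDIT3 was lower by 4.67. All 30 genes of G2/M and mitosis were called higher with OTX015 than with panobinostat.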

How the data were processed

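The deposited table held log2 values that the authors computed with RMA (affy 1.36.1, R 2.15.1), per the submitters' processing notes, for 23786 probe sets. No source used here names the array or how its probe sets were defined. The 22458 probe sets with 1 gene symbol were kept, and 1328 without one were fitted apart. Each array was assigned to its group from its title. limma 3.58.1 in R 4.3.3 was fitted with 4 group means over 8 arrays (4 residual and 4.41 prior degrees of freedom), so the groups share one estimate of the spread, with Benjamini-Hochberg adjustment over all genes. The steps were tested on simulated data.

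The members, gene lists and tests were chosen with earlier results of these data known. Named genes were the 25 largest non-overlapping changes each way above background, up to 4 called members each way of a described list or family, and a set of genes of BET biology. Promoters shown are the largest changes that hold the motif of their list. Sequences come from RefSeq (GRCh38.p14), which held promoters for 16038 genes.

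Alternatives were leaving out each array, the replicate number as a block, array centring or weights, quantile normalization, moderation with a trend and robust prior, fits of the compared groups alone, all probe sets, no genes from the dimmest 25% and a threshold of 0.01. Adjusted p-values in the text are limma's.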

Additional observations from a re-analysis of the deposited data

Results flagged for a closer look

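The effect of OTX015 differed between cells with and without panobinostat for several of the genes checked, by the interaction term of the limma fit (OTX015 effect on panobinostat minus its effect on DMSO, log2). Among genes that rose with OTX015 alone it was -3.07 for CEMIP2, -2.76 for ROPN1L, -2.60 for SERPINI1, -2.36 for EGR1, -2.21 for CDKN1A, -2.02 for TXNIP, -1.77 for H2BC5 and -1.72 for SOX2, the last a gene whose call with OTX015 alone hung on single arrays. Among genes that fell with OTX015 alone it was 3.98 for CA14, 3.78 for ATP10B, 3.66 for RLBP1, 3.42 for ITIH6 and 2.20 for SOX10. Levels without OTX015 differed. Panobinostat arrays lay above DMSO arrays for CEMIP2 (7.49 and 7.28, against 5.09 and 4.81) and ROPN1L (7.93 and 7.60, against 3.38 and 3.50). The same held for SERPINI1 (6.60 and 6.92, against 2.23 and 2.54) and EGR1 (10.83 and 10.54, against 6.21 and 6.51). It also held for CDKN1A, TXNIP and H2BC5. The part of these levels in the interaction was not tested. With panobinostat, CA14 (2.85 and 2.70), ATP10B (2.75 and 2.55) and ITIH6 (3.21 and 2.91) lay near or under the array background of 3.07, where a further fall could not be seen, so their values carry that limit. RLBP1 read 4.28 and 4.32 with panobinostat, against 8.20 and 8.42 with DMSO, and SOX10 read 4.16 and 3.91 with panobinostat, against 9.06 and 9.26 with DMSO.

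Probe sets with no gene symbol were also called. Of 1328 such probe sets, 88 were higher and 85 lower with OTX015 (13%), against 16.5% of the named genes.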

How the results depend on the processing

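For OTX015 against DMSO, 3697 genes were called, and the count ran from 2767 with only the 2 groups fitted to 4515 with an intensity trend and robust moderation. At an adjusted p under 0.01 it was 1739, and with 1 array left out it ran from 1885 to 2567. OTX015 plus panobinostat against panobinostat called 2342 genes, with 622 at 0.01, 1477 with only the 2 groups fitted and 566 to 1039 with 1 array left out. OTX015 against panobinostat called 6582, with 4272 at 0.01 and 4695 to 4803 with 1 array left out. The interaction called 3086, with 1145 at 0.01 and 1631 to 2546 with 1 array left out. A smaller fit has fewer residual degrees of freedom; beyond that the cause was not tested. Centring the arrays changed the split for OTX015 against DMSO to 1945 higher and 1638 lower, against 1791 and 1906 without it. Duplicate differences correlated across groups at only 0.047 to 0.118, so the replicate numbers are not taken to pair the arrays. With a replicate block the counts were 3752 for OTX015 against DMSO, 2365 on panobinostat, 6706 against panobinostat and 3172 for the interaction. A set of 70 genes (the 50 largest changes and the set of BET biology) was followed through most of the alternatives. Not followed were the threshold of 0.01, the fits of the compared groups alone and the fit of all probe sets. Of the 70 genes, 6 lost their call in at least 1 followed alternative and 0 reversed. At 0.01, H3C4 (limma adjusted p = 0.01023) and BORCS7 (0.03632), for example, would not be called. Other list members named in the report were followed singly only with an array left out, and their losses are given beside their values. The loss of GAA is read from the counts of its list. In the followed alternatives that kept every array, the losses among the 70 genes were BORCS7 (adjusted p = 0.05406 with the replicate block) and OLIG2 (0.05448 with centring). Having 2 arrays a group and a median standard error of 0.160 limits what can be called, and a probe set at the array background gives only a bound.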
